A study of Mus musculus with 14 samples.

Results

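The genes described here mark B cells and the plasma cells that B cells become. They are the 9 mouse genes Cd79a, Cd79b, Ms4a1, Cd22, Pax5, Pou2af1, Tnfrsf17, Jchain and Mzb1, taken by name as every array probe whose RefSeq accession belongs to one of them. This gave 11 probes, 3 of them for Cd22 and 1 for each of the other 8 genes, out of 56605 probes on the array. All 11 probes passed the filter on dim probes, and the 9 genes were tested among 30568 genes and unnamed probes, 17288 of them with a gene symbol. The choice rests on gene identity and on no measured value, though earlier results of these arrays were known when the genes were listed.

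Male C57BL/6N mice received 200 µg of carbon fibre each into the trachea, and 1 month later RNA of the whole lung was hybridised to 1 one-colour Agilent array per sample. The fibre groups were carbon fibre before recycling (VCF, 3 arrays), carbon fibre after carbonization (CCF, 3 arrays) and carbon fibre after firing (RCF, 3 arrays). The control group received the PBS vehicle (5 arrays). The mice carried no stated mutation or transgene, their age was not given in the sources used here, and the samples are described as independent biological samples. The design asks whether fibres at different stages of recycling change lung gene expression at this time.

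B cells recognise antigen through a membrane immunoglobulin that signals through the paired chains CD79A and CD79B, and surface proteins such as CD20 and CD22 tune that signal. PAX5 holds the B cell programme in place, and when a B cell becomes an antibody-secreting plasma cell PAX5 is shut off while secretion genes such as Mzb1 and Jchain are turned up. In the lung, B cells sit in small numbers in the tissue and its vessels and can gather with T cells in bronchus-associated lymphoid tissue, where plasma cells supply antibody to the airway.

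Values for single arrays are log2 of the processed signal minus the array's 75th percentile, so that 0 is the level of that percentile. Levels of different genes on this scale are not comparable, because each probe binds with its own strength. Precision is limited by how few arrays each group has. The arrays differed in brightness: the 75th percentile was between 277 and 1201 intensity units in VCF, between 323 and 1616 in CCF, between 375 and 2953 in RCF and between 891 and 1831 in control. VCF 1, CCF 2 and RCF 1 were dimmest, and probes well above background made up between 47.0% (VCF 1) and 70.0% (RCF 2) of the total. Arrays lay on 3 slides, and each slide held control arrays and at least 1 fibre group. All 10 epithelial and endothelial genes listed for lung, surfactant and club cell genes among them, were well above background on all 14 arrays. All 15 listed B cell surface genes were too. The 12 immunoglobulin constant and related genes listed had no probe named through RefSeq and were not analysed here.

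Compared with control lungs, lungs given carbon fibre had lower values of most B cell and plasma cell genes. For the mean of the 3 fibres, all 9 genes lay below control, and 3 of them fell past the threshold of an adjusted p of 0.05 (limma with Benjamini-Hochberg adjustment over all genes tested), where 0.579% of all genes tested fell and 2.58% passed in either direction. All 3 calls ended with normexp background correction, with no filter on dim probes, without the 3 dimmest arrays and with replicate number as a block. Cd79b fell 1.84-fold and Pou2af1 1.31-fold, and the Pou2af1 call also ended when any single array was left out. Tnfrsf17 fell by 1.18 on the log2 scale, a size that is not firm, since 4 of 9 fibre arrays were not well above background for it and normexp background correction gave −0.50 (adjusted p = 0.56). In the fibre groups taken singly, the calls were 0 of 9 for VCF, 1 of 9 for CCF (Cd79b) and 0 of 9 for RCF. Over all genes tested, 0.0851% passed for VCF, 5.99% for CCF (2.21% lower) and 0.154% for RCF, so that CCF had the most calls there too. In whole lung, fewer B cells and less of each RNA per cell cannot be told apart.

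**Figure D1:**
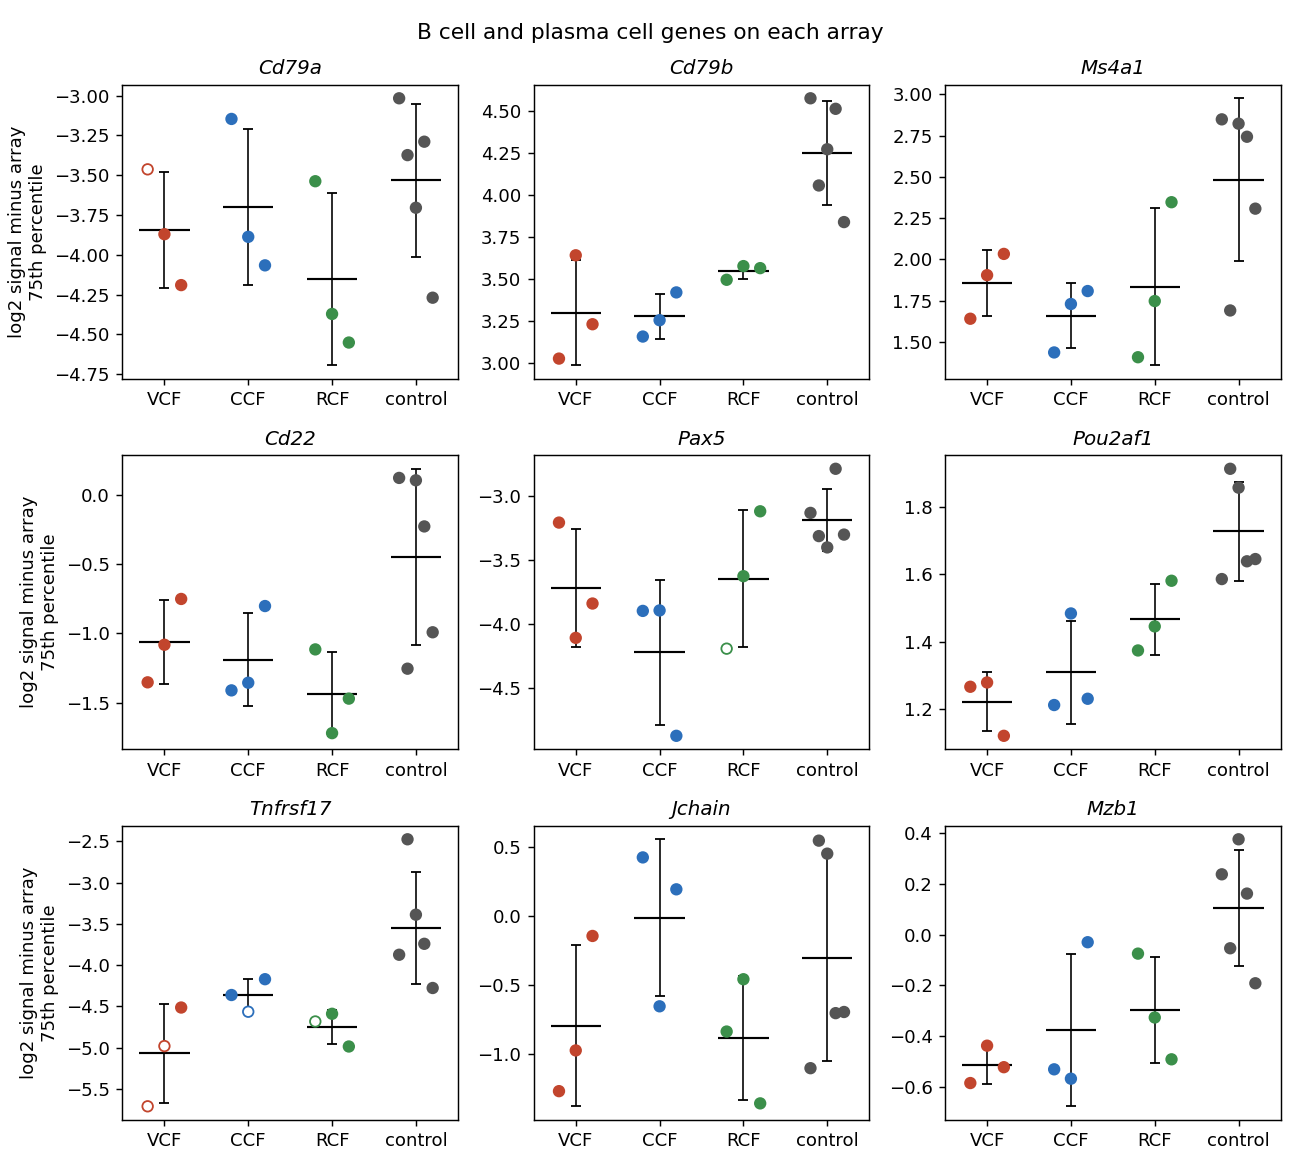
Values of the 9 genes on each of the 14 arrays. Each point is 1 array, in log2 of the processed signal minus the array's 75th percentile, with open points where the probe was not well above background. Lines and bars give the mean and SD of VCF, CCF and RCF (3 arrays each) and control (5 arrays). In the Cd79b and Pou2af1 panels every fibre array lies below every control array, and in the Jchain panel the groups overlap.

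The 2 signalling chains of the B cell receptor were measured by 1 probe each, a bright one for Cd79b and a dim one for Cd79a. Cd79b (chromosome 11, 106311341 to 106314562, RefSeq on GRCm38.p6) was at 3.02, 3.64 and 3.23 on the VCF arrays, 3.16, 3.25 and 3.42 on the CCF arrays, 3.49, 3.58 and 3.56 on the RCF arrays, and 4.58, 4.06, 4.27, 4.51 and 3.84 on the control arrays. All 9 fibre arrays were below all 5 control arrays. The mean of the 3 fibres differed by −0.88 ± 0.14 (log2, SE; adjusted p = 0.0169, limma). CCF against control gave −0.98 ± 0.19 with an adjusted p of 0.0174. VCF against control gave −0.95 ± 0.19 (adjusted p = 0.0908) and RCF against control −0.71 ± 0.19 (adjusted p = 0.147), neither past the threshold. Group means were 3.30 ± 0.31 in VCF, 3.28 ± 0.13 in CCF, 3.54 ± 0.04 in RCF (SD, n = 3 each) and 4.25 ± 0.31 in control (SD, n = 5), so that control stood highest and the neighbouring fibre groups did not differ past the threshold.

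The call on Cd79b held with the slide as a block, where the mean of the fibres gave −0.89 (adjusted p = 0.0206, limma). Within each slide the fibre arrays present were lower, by −1.004 on slide 1, −0.95 on slide 2 and −0.61 on slide 3. These values cover unlike sets: 5 arrays of all 3 fibres on slide 1, VCF and CCF against 1 control on slide 2, and RCF alone on slide 3. The call for the mean of the fibres ended without the 3 dimmest arrays (−0.82, adjusted p = 0.0654), with normexp background correction (−0.90, adjusted p = 0.0677) and with no filter on dim probes (−0.88, adjusted p = 0.0619). Replicate number as a block ended it too. With single arrays left out it held in 12 of 14 fits, not without control 1 or control 4. The CCF call on Cd79b held in 6 of 8 such fits, not without CCF 1 or CCF 2. Cd79a (chromosome 7, 24897497 to 24901858) was at −3.46, −3.87 and −4.19 in VCF, −3.15, −3.89 and −4.07 in CCF, −3.54, −4.37 and −4.55 in RCF, and −3.02, −3.37, −3.70, −3.29 and −4.27 in control. These groups overlapped throughout, and on VCF 1 the probe was not well above background. The mean of the fibres differed from control by −0.37 ± 0.25 (adjusted p = 0.481, limma), with a 95% interval of −0.92 to 0.18. The interval for Cd79a thus reaches past the value of −0.88 found for its partner chain.

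Ms4a1, which encodes the B cell surface protein CD20, and Cd22, which encodes an inhibitory coreceptor that binds sialic acid, are surface genes of mature B cells. Ms4a1 (chromosome 19, 11249679 to 11266149) was at 1.64, 1.90 and 2.03 in VCF, 1.44, 1.73 and 1.81 in CCF, 1.41, 1.75 and 2.35 in RCF, and 2.85, 1.69, 2.82, 2.74 and 2.31 in control. Control 2 lay among the fibre arrays and RCF 3 lay above control 5 and control 2, while the other 8 fibre arrays were below the other 4 control arrays. The differences were −0.62 ± 0.28 for VCF, −0.82 ± 0.28 for CCF, −0.65 ± 0.28 for RCF and −0.70 ± 0.21 for the mean of the fibres, with adjusted p-values of 0.492, 0.101, 0.353 and 0.1 (limma). Without control 2 the mean of the fibres passed the threshold for Ms4a1 (−0.90, adjusted p = 0.0306).

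Cd22 (chromosome 7, 30865404 to 30880342) was at −1.35, −1.08 and −0.75 in VCF, −1.41, −1.36 and −0.80 in CCF, −1.12, −1.72 and −1.47 in RCF, and 0.12, −1.25, 0.11, −0.23 and −0.99 in control. Controls 1, 3 and 4 were above every fibre array, and controls 2 and 5 lay within the fibre range. The mean of the fibres differed by −0.78 ± 0.25 (adjusted p = 0.112, limma) and by −0.98 without control 2 (adjusted p = 0.0465). The other 2 probes of Cd22 gave smaller values or another sign: −0.18 ± 0.28 for one that was above background on all 14 arrays, and 0.32 ± 0.98 for one above background on only 4. The probes of Cd22 therefore disagree on the size of the difference.

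Pax5 encodes the transcription factor that maintains B cell identity. Its probe was dim, at −3.21, −4.11 and −3.84 in VCF, −3.90, −3.89 and −4.87 in CCF, −4.19, −3.63 and −3.12 in RCF, and −3.13, −3.31, −3.40, −2.79 and −3.30 in control. All CCF arrays were below all control arrays, whereas VCF 1 and RCF 3 lay within the control range, and RCF 1 was not well above background. CCF differed from control by −1.03 ± 0.30 (2.05-fold lower, adjusted p = 0.065, limma). VCF differed by −0.53 ± 0.30 and RCF by −0.46 ± 0.30 (adjusted p = 0.585). No fibre group, CCF included, passed the threshold for Pax5. The gene lies on chromosome 4, from 44524748 to 44710694.

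Pou2af1 encodes the coactivator OBF1, which joins octamer-binding factors on immunoglobulin and other B cell promoters and is needed for germinal centres. It was at 1.27, 1.28 and 1.12 in VCF, 1.21, 1.48 and 1.23 in CCF, 1.37, 1.45 and 1.58 in RCF, and 1.59, 1.91, 1.86, 1.64 and 1.64 in control. Every fibre array was below every control array, though narrowly, with RCF 3 at 1.58 next to control 1 at 1.59. The mean of the fibres fell by 0.39 ± 0.09 (adjusted p = 0.0481, limma), with −0.51 ± 0.12 for VCF (adjusted p = 0.157), −0.42 ± 0.12 for CCF (adjusted p = 0.063) and −0.26 ± 0.12 for RCF (adjusted p = 0.397). The call ended when any single array was left out (adjusted p from 0.0515 to 0.117, values from −0.43 to −0.35), and it held with the slide as a block (−0.40, adjusted p = 0.0431). The gene is on chromosome 9, from 51213690 to 51240079.

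Tnfrsf17 encodes BCMA, a receptor for the survival factors BAFF and APRIL that long-lived plasma cells rely on. It was at −5.71, −4.98 and −4.51 in VCF, −4.36, −4.57 and −4.17 in CCF, −4.68, −4.59 and −4.99 in RCF, and −3.87, −2.47, −3.39, −3.74 and −4.28 in control. The control arrays were all well above background, against 1 of 3 in VCF, 2 of 3 in CCF and 2 of 3 in RCF. All fibre arrays but CCF 3 were below all control arrays, CCF 3 lying just above control 5, and control 2 was the highest array. The mean of the fibres fell by 1.18 ± 0.28 (adjusted p = 0.0481, limma), and the single fibres gave −1.52 ± 0.36 for VCF (adjusted p = 0.156), −0.82 ± 0.36 for CCF (adjusted p = 0.198) and −1.20 ± 0.36 for RCF (adjusted p = 0.189). The size depends on how background was treated: normexp gave the smaller value above, and leaving out any 1 array ended the call (adjusted p from 0.0505 to 0.119). Tnfrsf17 lies on chromosome 16, from 11313232 to 11320074.

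Mzb1 encodes an endoplasmic reticulum cochaperone that helps immunoglobulin heavy chains assemble. It was at −0.58, −0.44 and −0.52 in VCF, −0.53, −0.57 and −0.03 in CCF, −0.07, −0.33 and −0.49 in RCF, and 0.24, −0.05, 0.38, 0.16 and −0.19 in control. The VCF arrays were below all controls, and CCF 3 and RCF 1 lay within the control range. The difference was −0.50 ± 0.13 for the mean of the fibres (adjusted p = 0.0615, limma), −0.62 ± 0.17 for VCF (adjusted p = 0.221), −0.48 ± 0.17 for CCF (adjusted p = 0.112) and −0.40 ± 0.17 for RCF (adjusted p = 0.339). With the slide as a fixed block the mean of the fibres passed the threshold (adjusted p = 0.0271). Mzb1 lies on chromosome 18, from 35647265 to 35650266.

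Jchain encodes the joining chain that links IgM and IgA into polymers, and it was the only one of the 9 genes above control in a fibre group. It was at −1.27, −0.98 and −0.15 in VCF, 0.42, −0.66 and 0.19 in CCF, −0.84, −0.46 and −1.36 in RCF, and −1.10, 0.54, 0.45, −0.71 and −0.70 in control. The control arrays spread over most of the range of the fibre arrays, with controls 2 and 3 high and the other 3 low. The differences from control were −0.49 ± 0.43 for VCF (adjusted p = 0.81), 0.29 ± 0.43 for CCF (adjusted p = 0.757) and −0.58 ± 0.43 for RCF (adjusted p = 0.637, limma). The 95% intervals reached from −1.44 to 0.45 for VCF, from −0.66 to 1.23 for CCF and from −1.53 to 0.36 for RCF. The gene is on chromosome 5, from 88519809 to 88527897.

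**Figure D2:**
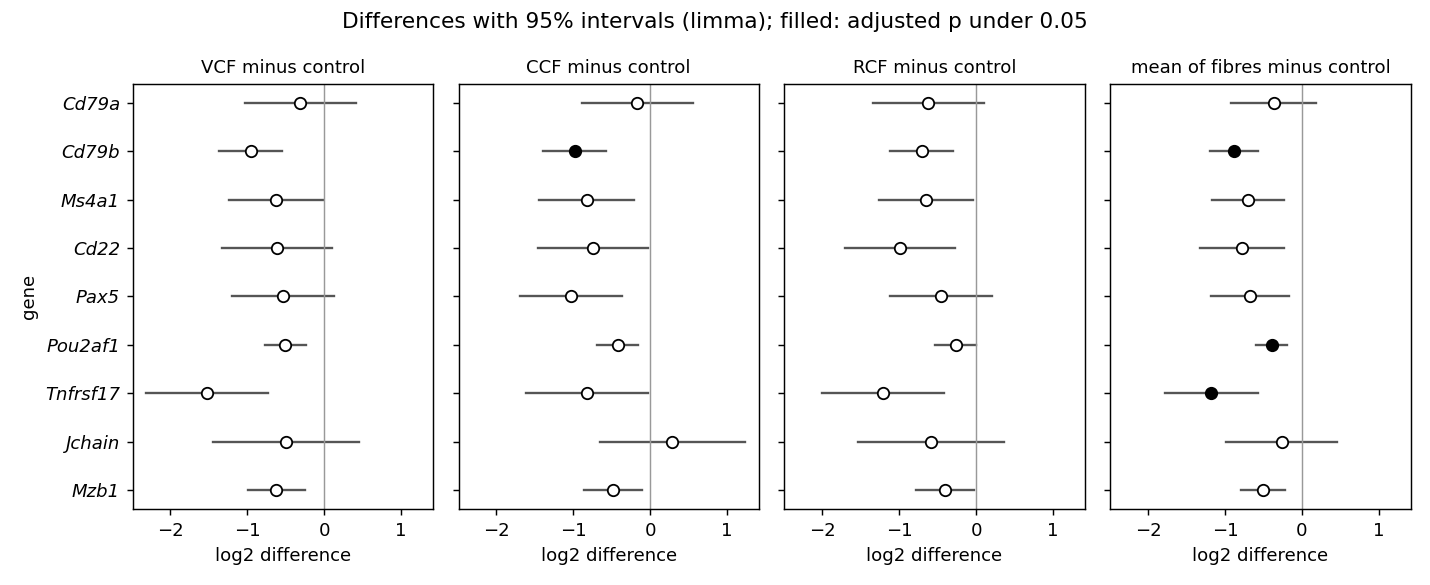
Difference of each gene from control (log2, x axis) for VCF, CCF, RCF and the mean of the 3 fibres, with the 95% interval from limma. Filled points passed an adjusted p of 0.05, which were Cd79b in CCF and Cd79b, Pou2af1 and Tnfrsf17 in the mean of the fibres. All points lie left of 0 except Jchain in CCF.

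Promoter sequences of the 2 called members that had one, Pou2af1 and Tnfrsf17, and of Jchain, the member that was not lower in CCF, show what sits before these genes. RefSeq on GRCm38.p6 gave a window of 250 bases before to 50 after a start site for 6 of the 9 genes, and Cd79b, Ms4a1 and Mzb1 are named only. The windows are chr9:51213440-51213739 on the plus strand for Pou2af1, chr16:11313559-11313858 on the plus strand for Tnfrsf17, which starts inside the annotated span of that gene, and chr5:88527848-88528147 on the minus strand for Jchain. Each is written 5′ to 3′ with matches to the E-box CANNTG, bound by factors such as E2A in B cells, in capitals.
Pou2af1: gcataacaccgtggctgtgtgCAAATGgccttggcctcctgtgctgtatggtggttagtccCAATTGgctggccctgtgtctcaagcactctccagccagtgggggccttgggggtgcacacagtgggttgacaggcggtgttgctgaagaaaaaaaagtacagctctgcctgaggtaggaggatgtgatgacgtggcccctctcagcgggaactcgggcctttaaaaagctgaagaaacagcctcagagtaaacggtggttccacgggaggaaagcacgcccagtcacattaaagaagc
Tnfrsf17: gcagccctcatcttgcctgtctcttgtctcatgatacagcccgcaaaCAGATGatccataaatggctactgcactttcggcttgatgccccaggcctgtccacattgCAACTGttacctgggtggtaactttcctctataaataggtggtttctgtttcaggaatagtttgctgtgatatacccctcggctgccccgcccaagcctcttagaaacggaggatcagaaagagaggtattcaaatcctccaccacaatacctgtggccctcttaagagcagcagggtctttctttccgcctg
Jchain: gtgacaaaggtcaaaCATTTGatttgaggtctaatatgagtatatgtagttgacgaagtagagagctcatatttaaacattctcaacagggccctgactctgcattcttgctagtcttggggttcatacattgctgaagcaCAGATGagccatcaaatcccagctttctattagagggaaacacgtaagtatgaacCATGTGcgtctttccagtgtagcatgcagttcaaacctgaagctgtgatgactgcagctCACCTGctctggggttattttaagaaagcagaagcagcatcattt
Both strands were searched for 4 motifs, and CANNTG reads the same on either strand. Pou2af1 had 2 E-box matches, Tnfrsf17 had 2 and Jchain had 4, and all 6 promoters of these genes held at least 1, as did 72.3% of 32851 mouse promoters of the same length. The octamer ATGCAAAT, which octamer factors and OBF1 bind on immunoglobulin promoters, matched in 0 of the 6 windows and in 1.74% of all promoters. The Ets motif GGAAGT matched in Cd79a (23.8% of all promoters) and the EBF motif CCCNNGGG in Cd22 (13.7% of all promoters), with no overlap between motifs. A match is a description of these letters and not a measured binding site.

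For VCF against control, 0 of 9 genes passed the adjusted threshold, and 0.0851% of all genes tested passed in either direction. All 9 lay below 0, with a median of −0.61 against −0.003 over all genes tested. At an unadjusted p under 0.05 there were 5 lower genes, where 4.99% of all genes were lower. In Cd79b, Pou2af1, Tnfrsf17 and Mzb1 every VCF array was below every control array, which held for 3.91% of all genes.

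For CCF against control, 1 of 9 genes passed (Cd79b, lower), where 2.21% of all genes tested were lower and 5.99% passed in either direction. Here 8 genes lay below 0 and Jchain above it, with a median of −0.74 against −0.003 over all genes. At an unadjusted p under 0.05 there were 7 lower genes, with 10.8% of all genes lower. The arrays did not overlap for Cd79b, Pax5 and Pou2af1, against 6.46% of all genes.

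For RCF against control, 0 of 9 genes passed, with 0.154% of all genes passing in either direction. All 9 lay below 0, with a median of −0.62 against 0.06 over all genes. At an unadjusted p under 0.05 there were 5 lower genes (4.15% of all genes were lower), and Cd79b, Pou2af1 and Tnfrsf17 had every RCF array below every control array (3.77% of all genes). The 3 fibre comparisons share the same 5 control arrays, so that a control array which stands high or low moves all of them.

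For the mean of the 3 fibres, 7 genes were lower at an unadjusted p under 0.05, against 8.06% of all genes. Cd79b and Pou2af1 were the 2 genes with all 9 fibre arrays below all 5 controls, against 0.562% of all genes. The count of 3 calls was 0 without the 3 dimmest arrays, and it ranged from 0 to 3 when single arrays were left out. It was 0 without control 1 and 0 without control 4. Without control 2 the 3 calls were Cd79b, Ms4a1 and Cd22, so that 1 of the 3 genes was shared with the call on all arrays.

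**Figure D3:**
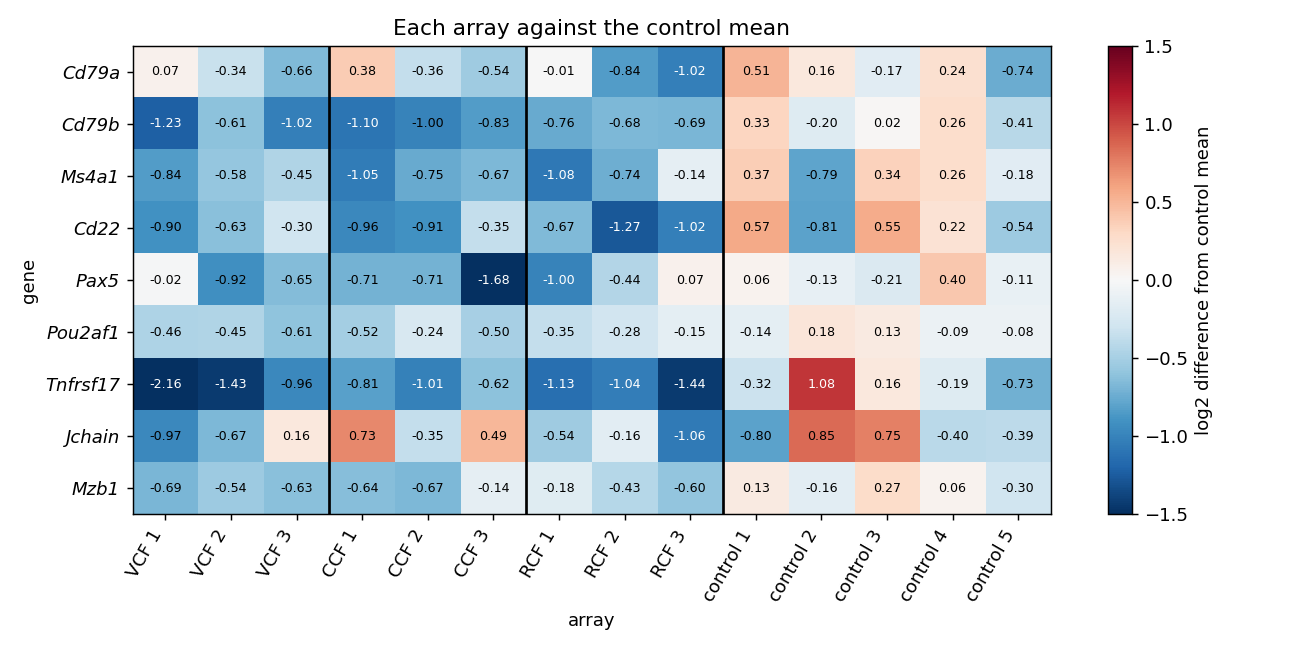
Each array's log2 difference from the control mean for the 9 genes (rows), with VCF, CCF, RCF and control arrays in columns from left to right. Blue cells are below the control mean and red cells above it. Cd79b, Ms4a1, Cd22, Pou2af1, Tnfrsf17 and Mzb1 are below it on all 9 fibre arrays, while the control arrays hold both colours and control 5 is below it in all 9 genes.

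Taken array by array, the number of genes below the control mean was 8, 9 and 8 of 9 on the VCF arrays, 7, 9 and 8 on the CCF arrays, 9, 9 and 8 on the RCF arrays, and 3, 5, 2, 3 and 9 on the control arrays. Control 5 thus resembled a fibre array in this count. Its median over the 9 genes was −0.39, against VCF medians of −0.84, −0.61 and −0.63, CCF medians of −0.71, −0.71 and −0.54, and RCF medians of −0.67, −0.68 and −0.69, so that control 5 was less far below than any fibre array. The other controls had medians of 0.13, −0.13, 0.16 and 0.22. These values are a description, since the control mean includes each control array itself.

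Within slides, which hold only 1 or 2 arrays of a group, all 9 genes were below control for VCF on slides 1 and 2 (medians −0.60 and −0.79). For CCF, 8 of 9 were below on slide 1 and 9 of 9 on slide 2 (medians −0.67 and −0.78), and Jchain on slide 1 was the exception at 0.16. For RCF all 9 were below on slides 1 and 3 (medians −0.56 and −0.48). These are values with no test, and no model was fitted within a slide.

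Between the fibres, 0 of 9 genes passed in any of the 3 comparisons by limma, and 0 were below an unadjusted p of 0.05. Over all genes, 0.222% passed and 13.8% were below that unadjusted p for CCF against VCF, 0.00982% and 9.04% for RCF against VCF, and 0.00327% and 9.26% for RCF against CCF. For Cd79b the intervals of the difference were −0.48 to 0.44 for CCF against VCF (value −0.02), −0.21 to 0.70 for RCF against VCF (value 0.25) and −0.19 to 0.73 for RCF against CCF (value 0.27). These intervals allow differences of up to 0.73 in size for Cd79b, so that a p past no threshold does not show that the fibres act alike. For Jchain CCF was above VCF by 0.78 (95% interval −0.27 to 1.84) and RCF below CCF by −0.87 (−1.93 to 0.18). For Tnfrsf17 RCF against CCF gave −0.39 (−1.27 to 0.50), with 1 array of each group not well above background.

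Other B cell genes, from lists made with earlier results of these data known, were mostly below control too. Of the 15 B cell surface genes 1 passed for the mean of the fibres, 13 were below 0 and the median was −0.42, against 0.01 over all genes tested. At an unadjusted p under 0.05 lower genes numbered 11 of 15 for VCF (4.99% of all genes), 2 for CCF (10.8% of all genes), 4 for RCF (4.15%) and 10 for the mean of the fibres (8.06%), and 1 gene was higher in CCF. The count for CCF is near the share over all genes. Cd72, an inhibitory receptor of B cells, was the gene that passed (−0.58 ± 0.13, adjusted p = 0.0459, limma), and a second Cd72 probe gave −0.19.

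Of the 13 B cell signalling genes 0 passed in any comparison with control (limma). For the mean of the fibres 11 of 13 were below 0, with a median of −0.19. At an unadjusted p under 0.05, 5 were lower, against 8.06% of all genes. Among those with the smallest p were the adaptor Blnk (−0.50 ± 0.13, adjusted p = 0.0608) and the B cell scaffold Bank1 (−0.77 ± 0.27, adjusted p = 0.147). Of the 10 measured B cell transcription factor genes 0 passed, 7 were below 0 and the median was −0.21. At the same unadjusted p 2 were lower, against 8.06% of all genes, and 1 was higher. Bcl11a, needed for early B cell development, gave −0.64 ± 0.17 (adjusted p = 0.0618), but its other probes gave −0.19 and 0.31. Spib, an Ets factor of mature B cells, gave −0.46 ± 0.18 (adjusted p = 0.188), and Bcl6, the germinal centre repressor, gave 0.23 ± 0.09 (adjusted p = 0.189).

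Secretory genes that plasma cells share with other secreting cells lay on both sides of 0. Of the 17 measured plasma cell and secretion genes 0 passed for the mean of the fibres (limma). Of these, 9 were below 0 and 8 above it, and the median was −0.03. At an unadjusted p under 0.05, 1 was higher and 1 was lower, which is near the 8.06% of all genes that were lower. Ell2, an elongation factor that favours secreted immunoglobulin mRNA in plasma cells, rose in CCF (0.99 ± 0.25, adjusted p = 0.0413), but a second Ell2 probe gave −0.74 there. Of the 8 measured genes of B cell survival and help 0 passed, and 7 were below 0 with a median of −0.34. At the same unadjusted p 3 were lower, against 8.06% of all genes. Among them Tnfrsf13b, which encodes TACI, gave −0.62 ± 0.23 (adjusted p = 0.171), Tnfrsf13c, which encodes the BAFF receptor, gave −0.30 ± 0.12 (adjusted p = 0.203), and Cd40 gave −0.30 ± 0.14 (adjusted p = 0.254).

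Of the 5 measured precursor B cell genes 2 were below 0 and 3 above it in CCF, with a median of 0.009. In that comparison 2 were lower at an unadjusted p under 0.05 (10.8% of all genes). For the mean of the fibres 3 were below 0 and 2 above it. The 1 gene that passed was Vpreb2, a surrogate light chain gene. It fell in CCF (−3.84 ± 0.99, adjusted p = 0.0438, limma), where 2.21% of all genes were called lower. Its values were 0.82, −1.63 and −3.30 in VCF, −3.58, −2.68 and −4.48 in CCF, −1.16, −0.15 and −0.02 in RCF, and −0.06, −0.04, −2.12, 1.33 and 2.17 in control. The spread within VCF and within control was several log2 units, and the call ended in 6 of 8 fits that left out 1 array.

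Genes of lymphoid tissue and homing had a median of −0.16 for the mean of the fibres, with 9 of 12 below 0 and 1 past the threshold. Ccr7, the receptor that guides lymphocytes and dendritic cells to the chemokines of lymphoid tissue, was at 1.43, 2.01 and 2.32 in VCF, 2.02, 1.80 and 2.13 in CCF, 1.89, 2.12 and 2.32 in RCF, and 2.64, 2.60, 2.97, 2.53 and 3.01 in control. All 9 fibre arrays were below all 5 controls, which held for 0.562% of all genes. The mean of the fibres fell by 0.74 ± 0.15 (adjusted p = 0.0348, limma) and CCF by 0.77 ± 0.20 (adjusted p = 0.0478), and a second Ccr7 probe gave −0.82 for the mean of the fibres. Ly6d, listed for plasmacytoid dendritic cells and also carried by B cells and their precursors, was at 1.91, 2.08 and 2.06 in VCF, 1.65, 1.69 and 2.04 in CCF, 1.88, 2.20 and 2.30 in RCF, and 2.95, 4.26, 2.91, 3.099 and 2.80 in control. Again the fibre and control arrays did not overlap, and the mean of the fibres fell by 1.23 ± 0.22 (adjusted p = 0.0231). Of the 8 plasmacytoid dendritic cell genes Ly6d alone passed, and 5 were below 0 with a median of −0.34. The calls on Cd72, Ell2, Vpreb2, Ccr7 and Ly6d all ended without the 3 dimmest arrays. Over the 10 other settings run, the call for the mean of the fibres held in 5 for Ly6d, 5 for Ccr7 and 3 for Cd72. The CCF call held in 5 for Vpreb2 and in 2 for Ell2, whose CCF value ran from 0.129 to 0.994 over these settings. With single arrays left out, the call for the mean of the fibres held in 12 of 14 fits for Ly6d (not without control 1 or control 4), in 4 of 14 for Ccr7 and in 3 of 14 for Cd72, and the CCF call on Ell2 held in 2 of 8.

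**Figure D4:**
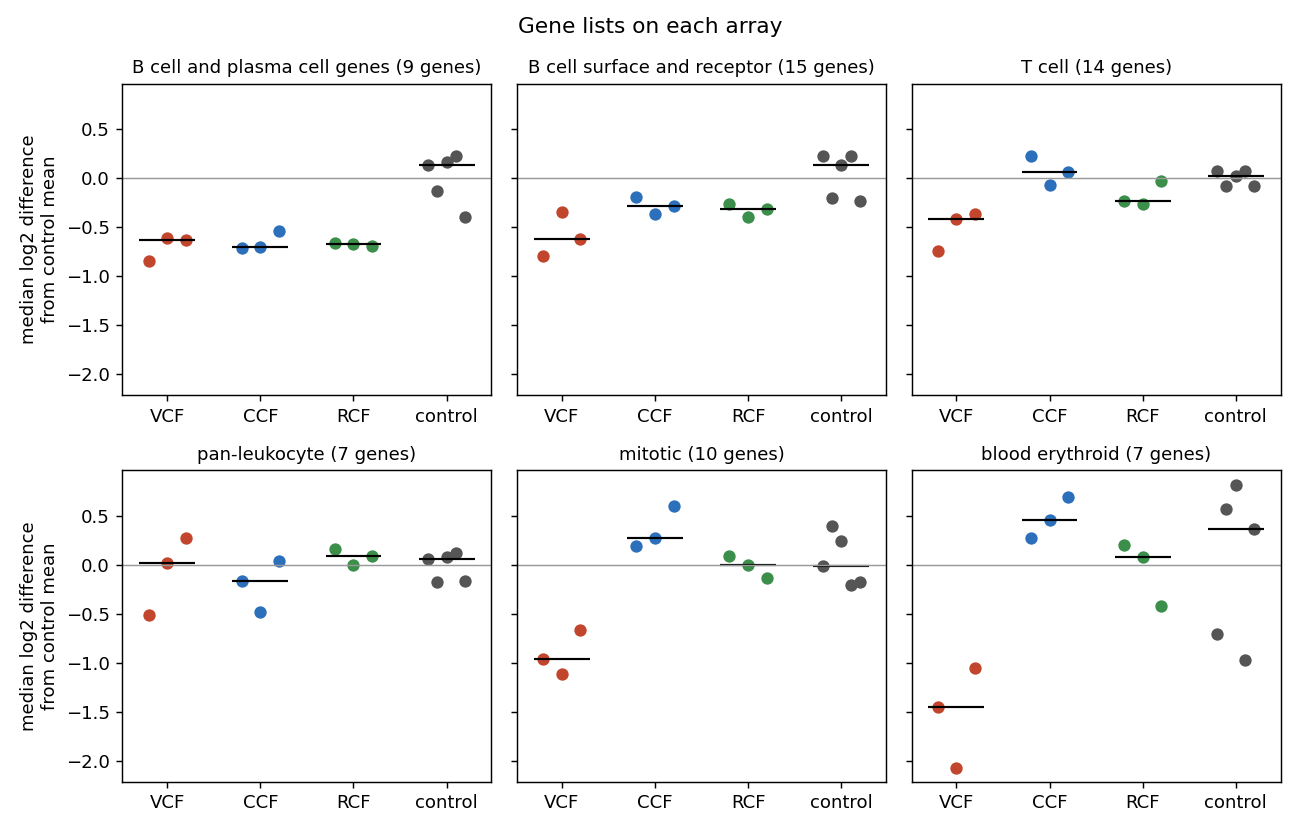
Median log2 difference from the control mean over the genes of 6 lists on each array (points), with the middle value of each group as a line. The 9 B cell and plasma cell genes and the 15 B cell surface genes are below 0 on all 9 fibre arrays, the T cell, mitotic and erythroid lists are low on the VCF arrays and not on the CCF arrays, and the pan-leukocyte list has arrays on both sides of 0 in VCF and CCF.

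The T cell, erythroid and mitotic lists were mostly below control for VCF, while the pan-leukocyte and the lung epithelial and endothelial lists had VCF medians of 0.10 and −0.05. The part of any of these in the differences was not tested. Of the 14 T cell genes 13 were above background on all arrays, and 12 of 14 were below 0 for VCF with a median of −0.56, 4 of 14 for CCF with a median of 0.13 and 11 of 14 for RCF with a median of −0.18. Lower T cell genes at an unadjusted p under 0.05 numbered 10 for VCF (4.99% of all genes) and 3 for CCF (10.8%). There were 0 for RCF (4.15%) and 5 for the mean of the fibres (8.06%), and 2 were higher in CCF. Cd2, an adhesion receptor of T cells and natural killer cells, fell for the mean of the fibres (−0.41 ± 0.09, adjusted p = 0.0368, limma), and Cd8a rose in CCF (0.61 ± 0.16, adjusted p = 0.0405), and both calls ended without the 3 dimmest arrays. Over the 10 other settings run, the call on Cd2 held in 3 and the call on Cd8a in 2. With single arrays left out, Cd2 held its call in 3 of 14 fits and Cd8a in 2 of 8. The summed T cell signal, relative to the 75th percentile, ran from 12.2 to 15.6 in VCF, from 19.3 to 21.7 in CCF, from 17.7 to 20.8 in RCF and from 20.2 to 23.2 in control. The same sum over the 9 B cell and plasma cell genes ran from 15.3 to 20.5 in VCF, from 16.6 to 19.4 in CCF, from 18.7 to 21.6 in RCF and from 24.6 to 37.1 in control. In CCF the sum over the 9 genes was below the control range while the T cell sum overlapped it, and in VCF both were below. Such a sum is weighted to the brightest probes, and over the 15 B cell surface genes it ran from 31.6 to 41.9 in VCF, from 39.5 to 47.6 in CCF, from 36.7 to 41.2 in RCF and from 37.7 to 48.7 in control, so that every fibre group overlapped control.

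Of the 7 measured erythroid genes all 7 were below 0 for VCF (median −1.58), 2 for CCF (median 0.57) and 5 for RCF (median −0.14). Against control 0 passed by limma, and all 7 were lower for VCF at an unadjusted p under 0.05 (4.99% of all genes). Their summed signal ran from 190 to 376 in VCF, from 518 to 726 in CCF, from 479 to 686 in RCF and from 427 to 875 in control. Of the 10 mitotic genes 10 were below 0 for VCF (median −1.01), 0 for CCF (median 0.36) and 5 for RCF (median −0.01). Cdca3 (−1.30, adjusted p = 0.0318), Kif20a (−1.06, adjusted p = 0.0373) and Mki67 (−0.97, adjusted p = 0.0483) fell in VCF by limma. These calls ended without the 3 dimmest arrays, with normexp, with quantile scaling and with no filter on dim probes. Only 4 of the 10 genes were well above background on all arrays, and Kif20a and Cdca3 were not among them. Under other settings the VCF value ran from −1.13 to −0.525 for Kif20a and from −1.43 to −0.774 for Cdca3, so these sizes are not firm. Sums over the list were 1.77 to 2.23 in VCF, 4.21 to 5.03 in CCF, up to 3.68 in RCF and 3.13 to 4.64 in control. The 7 pan-leukocyte genes had medians of 0.10 for VCF, −0.44 for CCF and −0.06 for RCF, with sums of 41.1 to 69.7 in VCF, 45.5 to 57.8 in CCF, 61.3 to 71.8 in RCF and 58.2 to 79.8 in control. Ptprc, which encodes the leukocyte antigen CD45, gave 0.37 ± 0.15 for the mean of the fibres (adjusted p = 0.204, limma), but a second Ptprc probe gave −0.45 there and −0.99 in CCF. The 10 lung epithelial and endothelial genes had medians of −0.05 (VCF), −0.39 (CCF) and −0.23 (RCF), with sums of 845 to 2698 in VCF, 824 to 1215 in CCF, 912 to 1166 in RCF and 987 to 1666 in control. Of 7 thymus genes 2 were measured, Dntt (−0.58 ± 0.49, adjusted p = 0.584) and Tcf7 (−0.03 ± 0.11, adjusted p = 0.925), of which a second probe gave 1.11.

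Over the 14 arrays, the mean of Cd79a, Cd79b, Ms4a1, Cd22 and Pax5 was followed most closely by Cd79b itself (Pearson r = 0.90), Ms4a1 (0.86) and Cd22 (0.84), while Pax5 (0.68) and Cd79a (0.52) followed it less and Jchain not at all (−0.05). Among genes outside the 9, with predicted and clone-like symbols passed over, the 8 most alike were Fzd2 (0.88), Gng2 (0.88), Sin3b (0.88), Psmb6 (0.88), Sncaip (0.87), Platr22 (0.87), Hddc2 (0.87) and Cirbp (0.86). The mean of Tnfrsf17, Jchain and Mzb1 was led by Tnfrsf17 (0.96) and Jchain (0.84), and Cd79b (0.55) and Ms4a1 (0.24) followed it less. Outside the 9, Uqcrc1 (0.89), Camk2a (0.89), Trappc9 (0.88), Cav3 (0.88), Hdgf (0.87), Tmem38a (0.87), Bri3bp (0.86) and Rhof (0.86) were most alike. These coefficients describe the same 14 arrays, which share groups, slides and brightness, and a member is part of the mean it is set against.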

How the data were processed

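Lung RNA of 14 mice was labelled with Cy3 and hybridised to 14 Agilent arrays, each with 62976 spots including 3671 controls. Spots were quantified by Feature Extraction 10.7.3.1 per the file headers. The deposited intensity values are that program's processed signal, background-subtracted but not scaled between arrays. The authors' table, as deposited, holds log2 values of 32177 probes, equal for each array to log2 of the processed signal minus a constant (column medians in VCF 0.30, −0.30 and −0.37, in CCF −0.36, 0.16 and −0.34, in RCF −0.17, −0.52 and −0.49, in control −0.05, −0.03, −0.29, −0.50 and −0.49). It has blanks and is not centred by gene, no source used here tells where the constants come from, and it served as an alternative.

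From the processed signal, log2 minus the array's 75th percentile was taken, with outlier spots left out and spots of a probe averaged. Probes well above background on at least 3 arrays were kept (37972 of 56605), symbols came from RefSeq accessions (32994 probes named, 23611 not), and a gene was read from its brightest passing probe. Probe positions are not given, since the array was designed on an older assembly. Files were read with version 1.17.8 of the R package data.table. Limma 3.58.1 in R 4.3.3 took all arrays in 1 model with 4 groups and 1 shared spread, giving 7 two-sided comparisons with Benjamini-Hochberg adjustment over all genes and a threshold of 0.05. The fit was tested on simulated data. The 9 genes, the 16 lists (177 entries) and the rule for naming genes were chosen with earlier results of these data known. The rule names all 9 genes, list genes past the threshold against control or else the 3 with the smallest p, and the 8 genes most alike in pattern; some named by it are not reported here.

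Alternatives covered background correction, scaling, the authors' values, the filter, the choice of probe, slide, replicate number and left-out arrays; the mean signal planned for normexp was replaced by the median signal that the files hold.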

Additional observations from a re-analysis of the deposited data

Results flagged for a closer look

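No value of the 9 genes stood apart within a group by Dixon's test, which applies to the 5 control arrays alone, since groups of 3 are not tested. Among the listed genes, Ly6d was at 4.26 on control 2, with the other controls from 2.80 to 3.099, and the gap was 0.794 of the group's range. Chance alone gives such a flag at times, and many genes were looked at. Without control 2 the mean of the fibres still differed for Ly6d, and over all fits leaving out 1 array the value ran from −1.33 to −0.96.

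Several genes of the neighbouring lists differed between fibres by limma. Cd8a, a coreceptor of cytotoxic T cells, was higher in CCF than in VCF by 1.07, and every CCF and RCF array lay above the control mean while every VCF array lay below it. The other Cd8a probe was above control in VCF too (0.31), and the difference between CCF and VCF held its call in 0 of 6 fits that left out 1 array. The mitotic genes Kif20a (1.43), Mki67 (1.41) and Cdca3 (1.35) were higher in CCF than in VCF, and Kif20a was higher in RCF than in VCF by 1.33. Kif20a and Cdca3 were not well above background on all arrays. Under other settings CCF against VCF ran from 0.708 to 1.51 for Kif20a and from 0.791 to 1.42 for Cdca3. Kif20a lay above the control mean on every CCF and RCF array and below it on every VCF array, and Mki67 lay above it on every CCF array and below it on every VCF array. Each of these differences lost its call without the 3 dimmest arrays, VCF 1, CCF 2 and RCF 1. The 9 B cell and plasma cell genes gave no such difference between fibres.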

How the results depend on the processing

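The number of genes past the threshold was 0 for VCF, for RCF and between the fibres under every alternative run. For CCF the count of 1 became 0 with normexp, with no filter, without the 3 dimmest arrays and with the replicate block, 2 with the slide as a fixed block, and 3 with the slide as a random block and with the authors' deposited table. Single arrays left out gave 0 to 2, with Cd79b lost without CCF 1 and without CCF 2. For the mean of the fibres the count of 3 became 0 with normexp, no filter, the replicate block and without the dimmest arrays, and 1 with quantile scaling and with the median over probes. It became 4 with the slide as a fixed or random block, where Mzb1 joined, and stayed at 3 with the authors' deposited table, with Mzb1 in place of Tnfrsf17. Single arrays left out gave 0 to 3. Replicate numbers were not taken as pairs in the main fit, since not every same-numbered pair had a residual correlation above 0.1. It was above 0.1 in 12 of 18 same-numbered pairs (median 0.18) and in 11 of 54 differently numbered pairs (median −0.04). Same-numbered arrays were thus more alike, which the main fit leaves out, and the cause was not tested. The replicate block leaves out controls 4 and 5, and the same arrays without the block (added after seeing the data) also gave 0 in both comparisons. In the replicate block, the 0 calls stood beside 5, 8, 5 and 7 genes lower at an unadjusted p under 0.05 for VCF, CCF, RCF and the mean. Counts over all genes moved more widely: 1832 genes passed for CCF, against 2 with the replicate block and 2952 with the slide as a random block, and 790 for the mean of the fibres, against 0 and 2238. By the authors' deposited table, genes called lower were 1.69% of all, among the 4.9% that passed for the mean. With no filter the median over all genes moved to 0.161 for VCF and 0.126 for CCF. The cause of these shifts was not tested.

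In all, 34 values turned sign under some alternative, 0 of them past the threshold, and all but 1 are differences between fibres. For RCF against VCF these were Jchain with the slide as a fixed block (0.346) or random block (0.134), Pax5 with quantile scaling (−0.31) and with the slide as a fixed (−0.3) or random block (−0.125), Tnfrsf17 with normexp (−0.0862), with the authors' deposited table (−0.278) and without the dimmest arrays (−0.0405), Ms4a1 without the dimmest arrays (0.0782), and Cd22 with the median over probes (0.0415). For RCF against CCF they were Cd22 with the median over probes (0.0833) and with the slide as a fixed block (0.0871), Mzb1 without the dimmest arrays (−0.129) and Tnfrsf17 with the slide as a fixed block (0.0303). For CCF against VCF it was Cd79b with normexp (0.0239). With single arrays left out, values of CCF against control ran from −0.446 to 0.014 for Cd79a. Values of CCF against VCF ran from −0.135 to 0.33 for Cd79a, −0.159 to 0.149 for Cd79b, −0.322 to 0.0277 for Cd22, −0.000616 to 0.135 for Pou2af1 and −0.0343 to 0.235 for Mzb1. Values of RCF against VCF ran from −0.282 to 0.188 for Ms4a1, −0.191 to 0.345 for Pax5, −0.00552 to 0.594 for Tnfrsf17 and −0.325 to 0.237 for Jchain. Values of RCF against CCF ran from −0.0807 to 0.389 for Ms4a1 and −0.0329 to 0.252 for Mzb1.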
